A study of Mus musculus with 12 samples.

Results

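Forebrain nuclei with markers of D1-type projection neurons of the striatum, named for the dopamine receptor D1, were examined in mice at postnatal day 1 (P1). Wild-type (WT) animals were compared with heterozygotes (Het), which carry 1 frameshift copy of Myt1l. Nuclei were chosen by a rule on unique molecular identifiers (UMIs, the tags that count captured RNA molecules). A nucleus had 800 to 6000 UMIs, 300 to 3000 genes and at most 1% mitochondrial UMIs, at least 4 UMIs in all from Drd1, Tac1, Isl1 and Ebf1 with at least 2 of these genes detected, at least 1 UMI from Rarb or Rxrg, and 0 UMIs from Drd2, Penk, Adora2a and Gpr6. The rule selected 1990 of the 101766 nuclei within these limits, or 1.96%, of which 948 came from WT and 1042 from Het animals. These are called D1 nuclei below.

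The striatum is the input station of the basal ganglia, and nearly all of its neurons are inhibitory projection neurons of D1 or D2 type. D1 neurons form the direct pathway, send axons to the substantia nigra and the internal pallidum, and make substance P and dynorphin, and the Gs/olf-coupled D1 receptor raises cyclic AMP in them. D2 neurons form the indirect pathway and make enkephalin. Both kinds are also sorted into patches, which are rich in the mu-opioid receptor, and the matrix around them. Isl1 and Ebf1 are transcription factors of the D1 lineage, and Rarb and Rxrg are retinoid receptors of the developing striatum.

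The samples came from 12 animals of the C57BL/6 line MYT1L S710fsX, with 1 library each. Of the 8 WT animals 5 were male, and of the 4 Het animals 3 were male. MYT1L is a transcription factor of neurons, and the mutation is carried in the germ line rather than in D1 neurons alone. The labels give forebrain as the region, while the study's text names the prefrontal cortex in 1 place, so how much striatum each sample held is not known. All P1 nuclei were barcoded on a common plate as 1 batch. The animals came from 4 litters, and which animal came from which litter was not analysed here. Libraries shared 0 barcodes.

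D1 nuclei were counted in every library, from 9 in WT male 4 to 363 in Het male 2. WT male 4 stood apart, with 9 D1 nuclei among 5398 against at least 82 in each of the other libraries. It also held the largest share of excitatory nuclei, 46.6% against 27.7% to 40.2% elsewhere. Levels by library and the main tests of expression were limited to the 11 libraries with at least 20 D1 nuclei, which leaves it out. Levels and shares given for a whole kind of nucleus were pooled over all 12 libraries and include it. In these 11 libraries the D1 counts summed to between 235746 and 1078469 UMIs, so that a gene with 0 UMIs could have stood at up to 12.7 CPM (UMIs scaled to a library total of 1e6) in the shallowest and 2.78 CPM in the deepest, if 3 UMIs are taken as the limit of a count of 0 and only counting error is considered. The median D1 nucleus had 2994 UMIs and 1568 genes, against 2001 UMIs over all kept nuclei.

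Ebf1 carried most of the rule. It was detected in 99.7% of D1 nuclei and gave 83.1% of the UMIs of the 4 D1 genes. Isl1 was detected in 68.7%, Tac1, which encodes substance P, in 30.2% and Drd1 itself in only 18.5%. The members are thus defined at this depth by Ebf1 more than by the receptor. By library, Drd1 stood between 45.6 and 92.2 CPM in D1 nuclei, Tac1 between 94.0 and 205.6, Isl1 between 204 and 366 and Ebf1 between 1997 and 2800. Rarb was detected in 99.0% of members and Rxrg in 55.2%. These genes chose the nuclei, so their levels are a description.

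Markers that the rule did not use gave a mixed picture. Of 8 other D1 markers, Zfp521, Pdyn and Slc35d3 stood higher in D1 nuclei than in all other nuclei of the same library in 11 of 11 libraries. Zfp521, a zinc-finger transcription factor, stood at 290 CPM in D1 nuclei and 90.0 CPM in other nuclei. Pdyn, which encodes prodynorphin, stood at 16.1 against 1.43 CPM, and Slc35d3 at 14.8 against 1.076 CPM. The others did not set D1 nuclei apart from all other nuclei. Chrm4, the muscarinic receptor M4, was close to 0 with 0.241 CPM, and Dlk1 stood at 1.13 and Asic4 at 1.93 CPM. These 3 lay under 2.78 CPM, the limit of the deepest library, and were too low to judge by library. Sfxn1 and Eya1 were above other nuclei in only 4 and 2 of 11 libraries. Against D2 nuclei, chosen by a rule given below, Sfxn1 was higher in 10 of 11 libraries (39.15 against 15.61 CPM) and Eya1 in 6. Of the 18 general projection-neuron genes with at least 50 CPM, 14 were higher than in other nuclei in all 11 libraries and 1, Arpp21, was lower in all. Among them, the transcription factor Foxp1 stood at 3429 against 1004 CPM, Bcl11b (CTIP2) at 857 against 197 CPM, and the phosphodiesterase Pde10a at 2310 against 454 CPM. Across all 3162 genes of at least 50 CPM in D1 nuclei, 18.8% were higher in all 11 libraries and 15.8% lower. The limit of 50 CPM was set on D1 nuclei, so genes low there were left out. The higher and lower counts are therefore not to be weighed against each other. Ppp1r1b, which encodes DARPP-32, stood at 17.4 CPM against 3.13 CPM in other nuclei, higher in 11 of 11 libraries.

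Markers of other cell types were not all at 0, and Adarb2, listed for the caudal ganglionic eminence, stood higher in D1 nuclei than in all other nuclei. Among markers of excitatory neurons, the transcription factor Neurod2 stood at 14.8 CPM in D1 nuclei against 70.3 CPM in all other nuclei, and Neurod6 at 13.4 against 50.1 CPM. Slc17a7, the vesicular glutamate transporter of cortical neurons, stood at 1.93 CPM. The 8 interneuron markers of the medial ganglionic eminence summed to 151 CPM against 869 CPM in all other nuclei, with Lhx6 at 2.61 CPM. The 6 markers of the caudal ganglionic eminence summed to 1829 CPM against 1299 CPM in all other nuclei. Adarb2 made up 1728 CPM of this, against 1127 CPM in other nuclei, and was higher in D1 nuclei in 11 of 11 libraries. The rest of this list did not follow. Cnr1 (91.7 against 137 CPM), Prox1 (5.15 against 17.2) and Nr2f2 (2.41 against 15.6) were higher in 0 of 11 libraries. Htr3a stood at 1.1 against 1.38 CPM, and Vip was at 0. The 6 astroglial markers summed to 110 CPM, against 502 CPM in all other nuclei, with Aqp4 at 1.45 CPM. Oligodendroglial, microglial, vascular, progenitor, cholinergic and blood markers each summed to at most 18.9 CPM. Foxp2 and Pbx3, which also mark the intercalated cells of the amygdala, were high at 1861 and 2202 CPM, while Tshz1, a defining gene of those cells, stood at 40.4 CPM against 39.5 CPM in other nuclei. Doublets were marked by similarity to simulated pairs of nuclei, and 157 D1 nuclei, or 7.89%, were marked, against 4.04% of all kept nuclei.

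The members were not uniform. Most of them, 1132 nuclei or 56.9%, had Isl1 UMIs and no Drd1 or Tac1 UMI. All 1132 also had Ebf1 UMIs, and they are called Isl1-Ebf1 nuclei here. A further 490 had Tac1 and no Drd1, and 368 had Drd1. Depth differed between these subsets, with medians of 2711, 3304 and 3472 UMIs. Ebf1, a rule gene, stood at 3054 CPM in the Isl1-Ebf1 nuclei, 1916 with Tac1 and 1843 with Drd1. Genes outside the rule differed along the same line. Pde10a stood at 1708 CPM in the Isl1-Ebf1 nuclei, 2947 with Tac1 and 2987 with Drd1. Reln, which encodes the secreted protein reelin, stood at 790, 1639 and 1825 CPM. Both were lower in the Isl1-Ebf1 nuclei than in the rest in 11 of 11 libraries, by medians of 0.76 and 1.07 on the log2 scale. Ikzf1, a zinc-finger transcription factor, ran the other way, with 278 CPM in the Isl1-Ebf1 nuclei against 131 and 92.1 CPM. So did Zfp521, with 347 against 231 and 223 CPM. Both were higher in 11 of 11 libraries. Foxp1 differed little, at 3378, 3632 and 3294 CPM. These subsets were cut on genes of the same nuclei, so no test is given.

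Nuclei on either side of the threshold of 4 UMIs were close for some genes and apart for others. The 234 nuclei just inside, with 4 UMIs, had 3157 CPM of Foxp1, 716 of Bcl11b and 2167 of Pde10a. The 203 just outside, with 3 UMIs, had 3023, 671 and 2439 CPM. Ikzf1 stood at 118 CPM inside and 69.6 outside, Adcy5 at 119 and 180.3, and Zfp521 at 135 and 184. Another 36 nuclei met the D1 side of the rule and were left out because they held a UMI of a D2 gene.

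D1 nuclei were set beside D2 nuclei of the same libraries. A mirrored D2 rule (at least 3 UMIs and 2 genes of Drd2, Penk, Adora2a and Gpr6) found 169 nuclei, too few for levels by library. A broader rule with at least 2 UMIs and no minimum of genes was therefore added after these counts were seen. It found 856 D2 nuclei, with a median of 2224 UMIs. Both D2 rules also needed at least 1 UMI from Rarb or Rxrg and 0 UMIs from Drd1, Tac1, Isl1 and Ebf1. Differences between D1 and D2 nuclei are given as log2(CPM + 10), taken within each library, and as medians over the 11 libraries. Since the nuclei were chosen on genes of the same profiles, they are a description. Of the 3162 genes of at least 50 CPM in D1 nuclei, 6.39% were higher in D1 nuclei in all 11 libraries and 4.46% lower. Genes under this limit in D1 nuclei but high in D2 nuclei were left out. The higher and lower counts, here and for the gene lists below, are therefore not to be weighed against each other.

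Among genes outside the rule with at least 50 CPM in D1 nuclei, the one furthest above its D2 level was Lingo2, a leucine-rich repeat membrane protein of neurons, which stood at 4008 CPM in D1 and 203 CPM in D2 nuclei, a median log2 difference of 4.66. The 15 genes that led this order were all higher in 11 of 11 libraries. They included 3 transcription factors, Ikzf1 (200 against 4.02 CPM, median 3.87), Zfp521 (290 against 32.6 CPM, 3.09) and Foxp4 (185 against 33.1 CPM, 2.14). Adhesion and secreted molecules were also among them. Cntnap3 stood at 268 against 10.1 CPM, the cell-adhesion molecule Dscam at 636 against 89.3 CPM, Reln at 1236 against 275 CPM and the membrane collagen Col25a1 at 1032 against 206 CPM. Adarb2, an RNA-binding protein best known from interneurons, stood at 1728 against 292 CPM. The others were Galnt18, an enzyme of O-glycosylation, the read-through gene Iqschfp, which overlaps Iqcj and Schip1, and the noncoding or unclassified transcripts 6530403H02Rik, A630036G19Rik, Gm49674 and Gm12371. Gm12371 begins close to the start of Lingo2 on the other strand, and the sources used here do not say whether counting used strand.

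**Figure D1:**
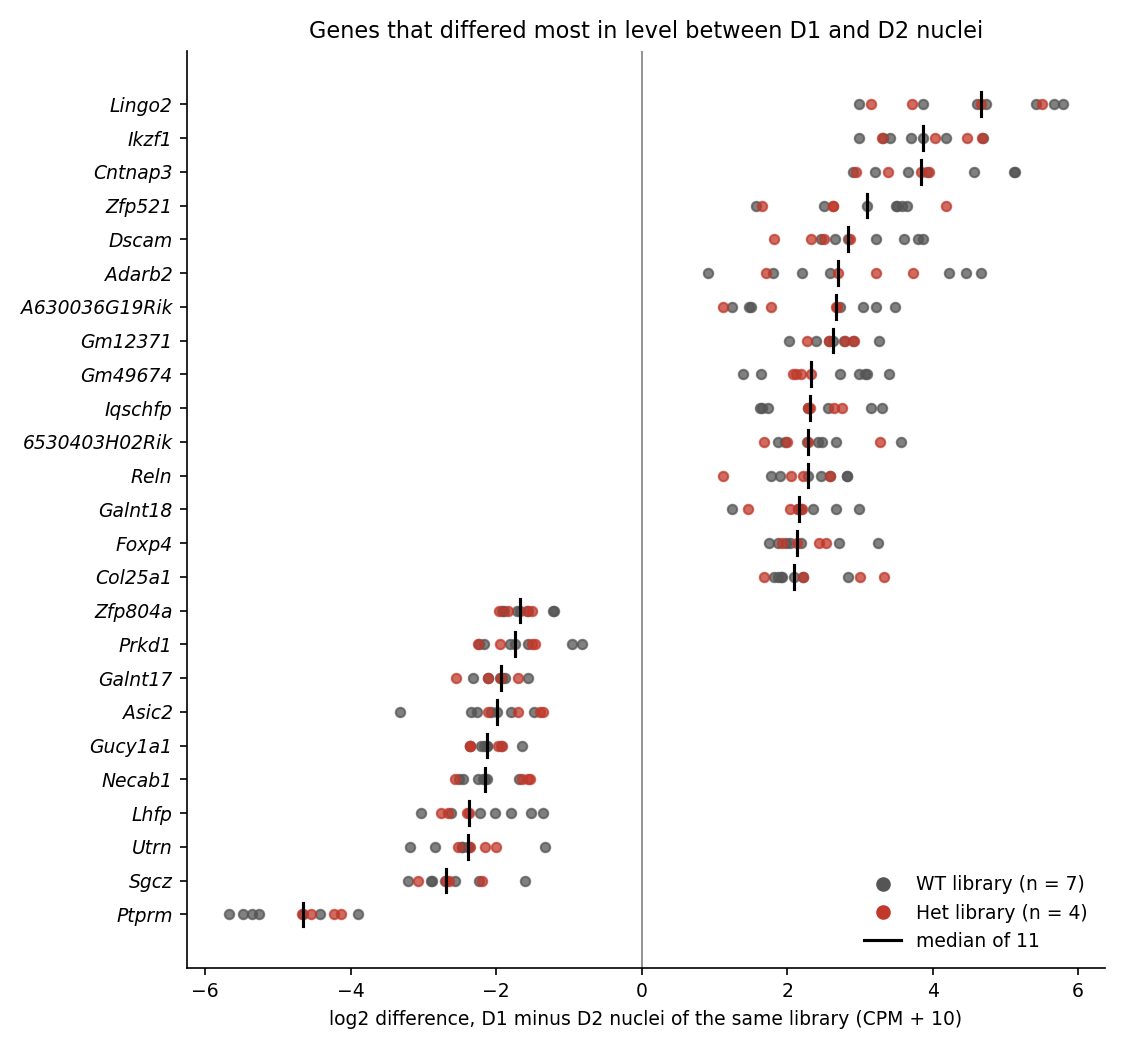
Log2 difference in level between D1 and D2 nuclei for the 15 genes highest and the 10 lowest against D2 nuclei among genes with at least 50 CPM in D1 nuclei, rule genes left out. Each point is 1 library (7 WT in grey, 4 Het in red), the x axis is the log2 difference on the CPM + 10 scale, and black bars are medians of 11 libraries. The points of every gene shown lie on 1 side of 0.

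At the other end stood Ptprm, a receptor tyrosine phosphatase of cell contacts. It was at 83.0 CPM in D1 and 2150 CPM in D2 nuclei, a median log2 difference of -4.66, lower in 11 of 11 libraries. Sgcz (700 against 4604 CPM), Utrn (96.4 against 536), Lhfp (54.4 against 332), Necab1, a neuronal calcium-binding protein (54.2 against 248), and Gucy1a1, a subunit of the nitric oxide receptor guanylate cyclase (143 against 665), were lower by medians of 2.69 to 2.13 on the log2 scale. The remaining 4 were Asic2, Galnt17, Prkd1 and Zfp804a, with medians of -1.99 to -1.68. The D2 transcription factor Sp9, which the rule did not use, stood at 3.38 CPM in D1 and 50.6 CPM in D2 nuclei, and the kainate receptor subunit Grik3 at 27.1 against 438 CPM. Their median log2 differences were -2.29 and -3.39, lower in 11 of 11 libraries, and the order above leaves them out only because they stood under 50 CPM in D1 nuclei. Over all 3162 genes of at least 50 CPM in D1 nuclei, 6.39% were higher than in D2 nuclei in all 11 libraries and 4.46% lower. Of the 18 general projection-neuron genes with at least 50 CPM, 4 were higher in D1 than in D2 nuclei in all 11 libraries and 5 lower. Foxp2 (1861 against 754 CPM) was among the former, and Phactr1 (2319 against 3888 CPM), Foxp1 (3429 against 4137 CPM) and Meis2 (2774 against 3584 CPM) among the latter. Bcl11b stood level, at 857 CPM in D1 and 856 CPM in D2 nuclei.

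Against all other nuclei, the 10 genes of at least 50 CPM with the largest median log2 differences, rule genes left out, were Strip2, Myo3b, Ikzf1, Gm14133, Slc35f3, Col25a1, Oprm1, Pde7b, Dach1 and Gm1604a, from 3.41 down to 2.52 and each in 11 of 11 libraries. Pde7b (1053 against 1071 CPM) and Dach1 (2084 against 2106 CPM) stood level between D1 and D2 nuclei, Myo3b was higher in D1 nuclei in 10 of 11 libraries, and the others were higher in 11 of 11. Oprm1 stood at 269 CPM in D1 nuclei, 105.5 in D2 nuclei and 28.4 in all other nuclei.

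Signalling genes that act downstream of the D1 receptor were detected in D1 nuclei. Of the 21 dopamine and cyclic AMP signalling genes with at least 50 CPM in D1 nuclei, 12 were higher than in other nuclei in all 11 libraries and 3 lower. Across all 3162 genes at that level, 18.8% were higher and 15.8% lower. Gnal, the olfactory-type G protein subunit that couples the D1 receptor, stood at 486 against 149 CPM, Adcy5, the main striatal adenylyl cyclase, at 114 against 56.5 CPM, and Gng7 at 168 against 30.6 CPM. In D2 nuclei they stood at 483, 106 and 263 CPM, and Gng7 was higher in D1 than in D2 nuclei in only 1 of 11 libraries. Pde4d ran the other way with 379 against 1102 CPM. Between D1 and D2 nuclei, Pde4b was lower in D1 nuclei in 11 of 11 libraries (1243 against 2416 CPM), and Rasgrp1, an exchange factor for Ras, was higher in 11 of 11 (61.5 against 33.4 CPM). Receptors and peptides were sparser. Of 14 genes, only Oprm1 and the cannabinoid receptor Cnr1 reached 50 CPM, Chrm1 stood at 23.6 CPM, and the delta-opioid receptor Oprd1 stood at 0.805 CPM in D1 against 22.5 CPM in D2 nuclei. Beside the retinoid receptors of the rule, 0 of 14 retinoid genes reached 50 CPM. Dhrs3 (25.5 against 2.37 CPM), which reduces retinaldehyde, and the retinol transporter Stra6 (11.6 against 1.42 CPM) were higher in D1 than in D2 nuclei in 11 of 11 libraries.

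Guidance and adhesion genes divided D1 from D2 nuclei in both directions. Of the 24 axon guidance genes with at least 50 CPM, 6 were higher in D1 nuclei in all 11 libraries and 9 lower. Dcc, the netrin receptor, stood at 3856 against 2113 CPM in D2 nuclei, and Plxnd1, a semaphorin receptor of D1 neurons, at 82.7 against 30.8 CPM. Sema3e, a ligand of Plxnd1, stood lower, at 57.1 against 164 CPM, as did Slit3 at 150 against 359 CPM. Of the 28 adhesion and synapse genes with at least 50 CPM, 12 were higher in all 11 libraries and 5 lower. The cadherin Cdh18 (866 against 221 CPM), the neuroligin Nlgn1 (2348 against 838 CPM) and Cdh8 (4102 against 1858 CPM) were among the former, and Cntnap2 (1978 against 4359 CPM) and Nrxn3 (6782 against 11620 CPM) among the latter. Of the 7 immature-neuron genes at 50 CPM or more, 1, Stmn2, was higher in D1 than in D2 nuclei in all libraries and 0 were lower, and of the 18 mature-neuron genes 4 were higher and 3 lower. Over all 3162 genes the shares were 6.39% and 4.46%.

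Oprm1 marks striatal patches and was not part of the rule. It was detected in 799 D1 nuclei, or 40.2%, and in 17.9% of D2 and 3.20% of excitatory nuclei. With each nucleus thinned to 800 UMIs, the shares were 16.8% in D1, 8.06% in D2 and 0.815% in excitatory nuclei, which serve here as a cell type with little Oprm1. Median depths before thinning were 2994, 2224 and 2615 UMIs. The D1 nuclei with an Oprm1 UMI were compared with the 1191 without, again as a description, since detection rises with depth (medians of 3334 and 2693 UMIs). The patch genes Bach2 and Lypd1 were higher in nuclei with Oprm1 in 11 of 11 libraries, Bach2 at 974 against 559 CPM and Lypd1 by a median of 0.78 on the log2 scale. Sema5b, Khdrbs3, Kremen1 and Pdyn were higher in 10 of 11 libraries. Nnat did not follow, at 213 against 210 CPM. The matrix gene Epha4, an ephrin receptor, was lower in nuclei with Oprm1 in 11 of 11 libraries, at 366 against 607 CPM, and Id4 was lower in 9 of 11. Calb1 and Gda, also listed as matrix genes, did not follow the list, with median log2 differences of 0.16 and 0.59. Of all 3161 genes of at least 50 CPM, 2.72% were higher and 1.49% lower in nuclei with Oprm1 in all 11 libraries.

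**Figure D2:**
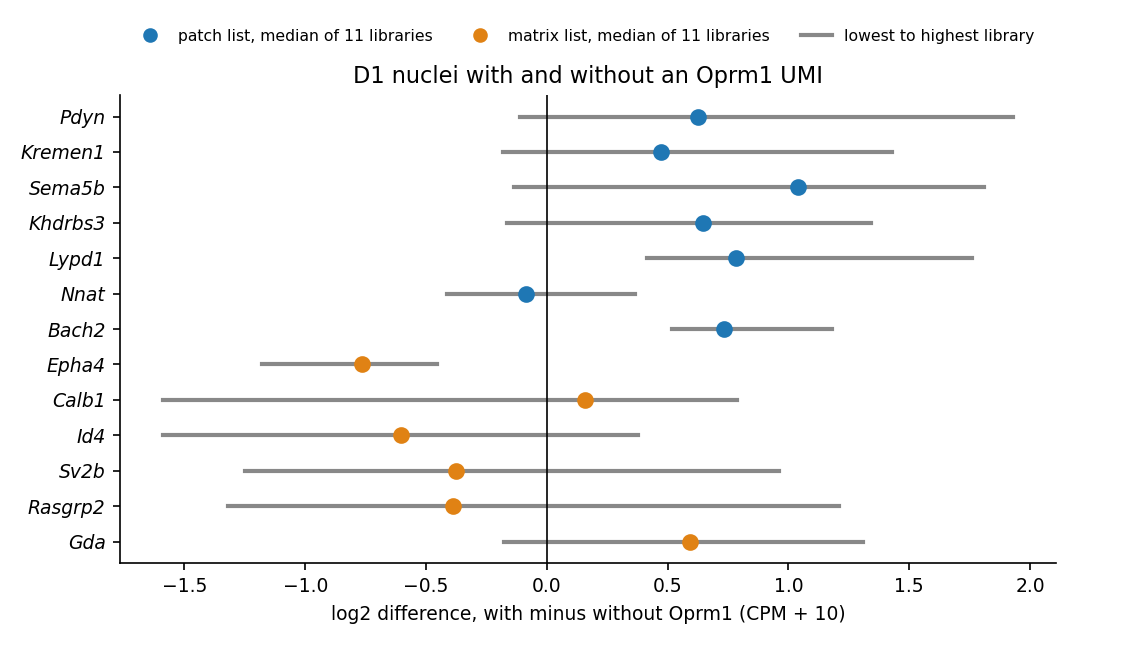
Log2 difference in level between D1 nuclei with and without an Oprm1 UMI, on the CPM + 10 scale, for 7 patch genes (blue) and 6 matrix genes (orange). Points are medians of 11 libraries and grey lines run from the lowest to the highest library. The lines of Lypd1, Bach2 and Epha4 do not cross 0.

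The thinned share of D1 nuclei with Oprm1 did not differ between genotypes beyond the spread between libraries. In WT it was 15.98% ± 4.32 (SD, n = 7), with a range of 10.98% to 22.9%. Het libraries had 15.5% ± 4.33 (SD, n = 4), with a range of 11.6% to 21.5% (exact permutation test, two-sided p = 0.879). The difference of Het minus WT was -0.437 percentage points with a standard error of 2.71, and without thinning it was -4.38 (exact permutation p = 0.17).

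The share of kept nuclei that met the D1 rule was compared between WT and Het libraries. It does not give the number of striatal projection neurons in the tissue. D1 nuclei made up a larger share of Het libraries, but the difference did not pass after adjustment. In WT the share was 2.49% in male 1, 1.94% in male 2, 1.42% in male 3, 0.167% in male 4, 1.146% in male 5, 1.34% in female 1, 1.70% in female 2 and 1.71% in female 3. In Het it was 1.78% in male 1, 3.38% in male 2, 1.91% in male 3 and 2.95% in female 1. All 4 Het libraries lay above the WT mean and 2 of them above every WT library, while Het male 1 and Het male 3 lay within the range of WT. The WT mean was 1.49% ± 0.675 (SD, n = 8) and the Het mean 2.50% ± 0.786 (SD, n = 4), a ratio of 1.68, and the exact permutation test gave p = 0.0404 (two-sided), or 0.121 adjusted over the 6 values tested per library. Without WT male 4 the difference went from 1.02 to 0.828 percentage points (exact permutation p = 0.0606). The unadjusted p also exceeded 0.05 without WT male 3, WT male 5, any 1 WT female, Het male 2 or Het female 1, reaching 0.121 without either of the last 2 (exact permutation test). The D2 share by the broader rule was 1.195%, 0.710%, 0.789%, 0.0185% and 0.4996% in WT males 1 to 5. In WT females 1 to 3 it was 0.458%, 0.931% and 0.855%. In Het males 1 to 3 and female 1 it was 0.903%, 1.296%, 0.715% and 1.066%. The D2 share was not tested between genotypes, so a larger share in Het is not shown to be particular to D1 nuclei.

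The direction of the difference in the D1 share was the same at equal depth. With all nuclei thinned to 800 UMIs and the rule set at 2 UMIs from 2 genes, 658 nuclei qualified. They made up 0.455% ± 0.216 of WT libraries (SD, n = 8) and 0.891% ± 0.330 of Het libraries (SD, n = 4). The exact permutation test gave p = 0.0323, or 0.121 after adjustment. The median number of UMIs per D1 nucleus averaged 3020 ± 341 over WT (SD, n = 7) and 2908 ± 57.4 over Het libraries (SD, n = 4), with p = 0.527 by the exact permutation test.

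**Figure D3:**
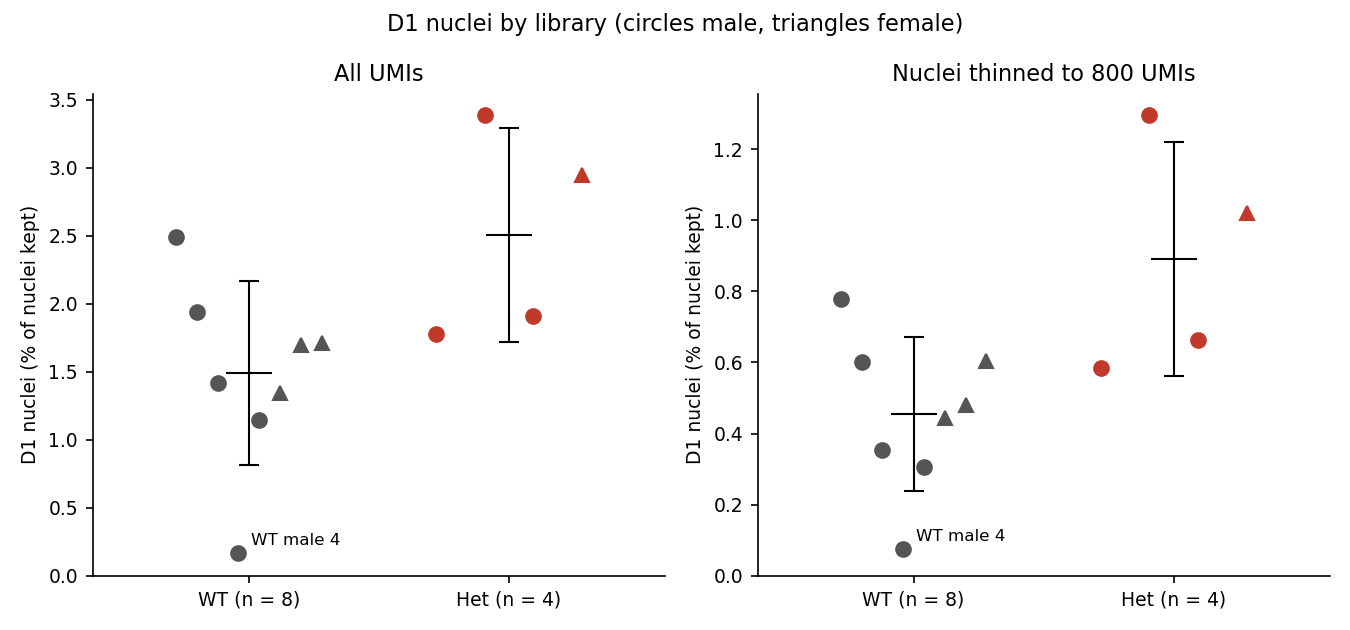
Percent of kept nuclei that met the D1 rule in each library, with all UMIs (left) and with each nucleus thinned to 800 UMIs (right). Points are libraries (circles male, triangles female), and bars give the mean and SD of 8 WT and 4 Het libraries. All 4 Het libraries lie above the WT mean in both panels, and WT male 4 lies below all others.

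The shares of D1 and D2 nuclei varied together from library to library. The Pearson correlation of the D1 share with the D2 share by the mirrored rule was 0.908 over the 12 libraries (permutation p = 8e-05) and Spearman's rho was 0.846 (permutation p = 0.00099). Without Het male 2 and WT male 4, the libraries farthest from the median D1 share, r was 0.844, and within the 8 WT libraries it was 0.90 (permutation p = 0.00547). With the broader D2 rule r was 0.917 (permutation p = 7e-05), 0.794 without those libraries and 0.938 in WT. Both correlations over 12 libraries had an adjusted p of 8e-05. The 2 shares have the same denominator, and the part of dissection in this relation was not tested. Het alone, with 4 libraries, was too few for a correlation.

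**Figure D4:**
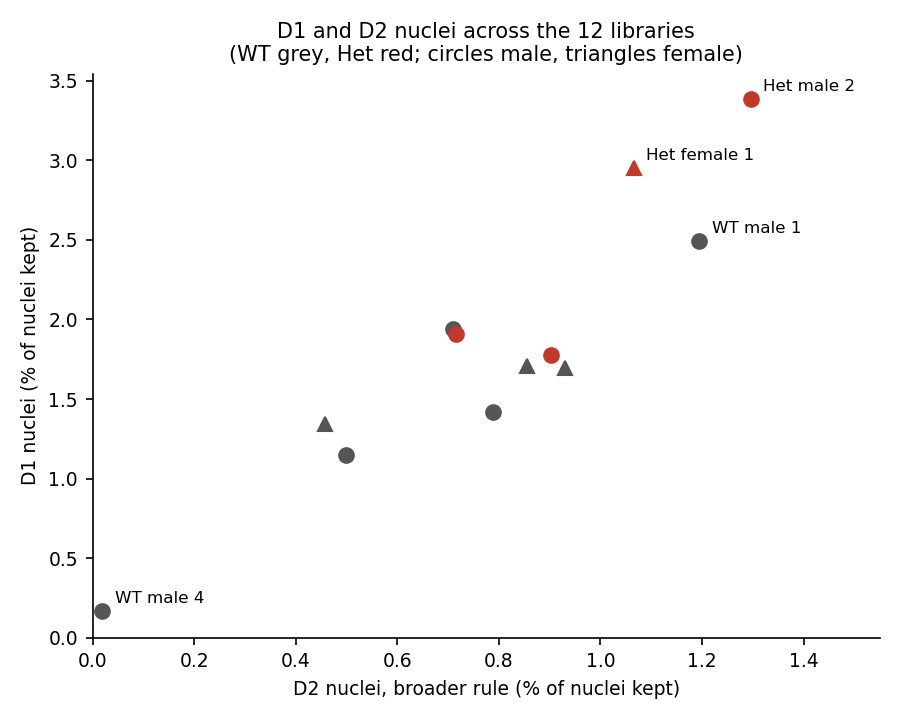
D1 nuclei against D2 nuclei (broader rule), each as a percent of the nuclei kept in a library. WT libraries are grey and Het libraries red, with circles for males and triangles for females. WT male 4 lies near the origin, and Het male 2 has the highest value on both axes.

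The D1 part of all D1 and D2 nuclei by the mirrored D2 rule, which takes only these nuclei as its denominator, overlapped between genotypes. The level of this part depends on the D2 rule and is not the D1 fraction of striatal projection neurons. The mirrored rule found 169 D2 nuclei and the broader one 856. In the libraries used, the mirrored rule found from 5 (WT female 1) to 30 (WT male 1). WT libraries had 91.8% ± 1.97 (SD, n = 7), with a range of 89.1% to 94.4%. Het libraries had 92.7% ± 0.611 (SD, n = 4), with a range of 91.9% to 93.3% (exact permutation test, two-sided p = 0.394). The difference was 0.922 percentage points with a standard error of 0.806. With each library left out in turn it lay between 0.474 and 1.36. With the broader D2 rule the difference was 2.57 percentage points (exact permutation p = 0.315).

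The gene that carries the mutation, Myt1l, occupies bases 29528384 to 29923213 of chromosome 12, plus strand, in GRCm38 (ENSMUSG00000061911.15). The frameshift allele can still be transcribed, so its level does not check the genotype labels. In D1 nuclei it stood at 1658, 1749, 1980, 1967, 1899, 1893 and 1787 CPM in WT males 1, 2, 3 and 5 and females 1, 2 and 3, and at 1919, 1888, 1738 and 1972 CPM in Het males 1, 2 and 3 and female 1. The groups overlapped, with means of 1847 ± 119 (SD, n = 7) and 1879 ± 100 (SD, n = 4; exact permutation p = 0.685). The fitted log2 difference was 0.01 (standard error 0.0802, edgeR's quasi-likelihood test, adjusted p = 1.0). Myt1l overlaps Gm20208 and C630031E19Rik on the other strand. It was lower in D1 than in D2 nuclei in 11 of 11 libraries, at 1848 against 2187 CPM.

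No gene was called between Het and WT in D1 nuclei. Counts were summed over the D1 nuclei of each library, and calls needed both a log2 difference of at least 0.2 in size and a p under 0.05 after Benjamini-Hochberg adjustment. By edgeR's quasi-likelihood test 0 of 7071 genes passed (0.0%), while 433 (6.12%) had p under 0.05 before adjustment and the lowest adjusted value was 0.325. DESeq2 also called 0, and 230 genes had p under 0.05 before adjustment. The libraries of WT and Het did not overlap for 45 genes, or 0.636%. With 7 and 4 libraries, random labels separate a gene in this way with probability 0.00606 (smallest p of the exact permutation test), close to that share. In counts simulated for this comparison, edgeR recovered 84% of genes changed by 1 and 98.9% of those changed by 2 on the log2 scale, over 6822 genes. These shares are of the 94 and 95 changed genes that passed the low-count filter. Changes were placed only in genes above a limit of expected count, and none smaller than 1 was simulated. Recovery of smaller differences, down to the limit of 0.2, is thus not known. With no filter on low counts, 16 genes passed (0.0615% of 26025), all of which had been tested and not called with the filter. Among them Mid1 had 1364 of its 1979 UMIs in WT male 5.

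The 12 genes with the smallest unadjusted p are given with their levels. With the low-count filter 0 of them were called, and without it 8 were, namely Gm47283, Pcdh17, Clstn2, Adamts6, Gulp1, Foxo1, Prr16 and Sema3c, with edgeR adjusted p between 5.15e-27 and 0.00937. In 7 of the 12 the Het mean was lower. Gulp1, an adaptor protein for the engulfment of dying cells, averaged 125 ± 34.7 CPM over the WT libraries (SD, n = 7) and 74.2 ± 5.78 over the Het libraries (SD, n = 4). All 4 Het libraries lay below all WT libraries, and the log2 difference was -0.79 (standard error 0.172, edgeR, adjusted p = 0.325). Cdh11, another cadherin, stood between 451.5 and 527 CPM in WT and between 311.5 and 416 in Het, again without overlap (log2 difference -0.44, standard error 0.0964, edgeR adjusted p = 0.325). Prr16 stood at 250 ± 50.2 CPM in WT and 157 ± 26.8 in Het, and 3 of 4 Het libraries lay below all of WT. The transcription factor Foxo1, which was higher in D1 than in D2 nuclei (302 against 118 CPM), stood at 376 ± 87.0 CPM in WT and 241 ± 48.0 in Het. The protocadherin Pcdh17 (678 ± 217 and 384 ± 138 CPM), the endocytic scaffold Itsn2 (388 ± 55.5 and 281 ± 47.1 CPM) and the noncoding A330008L17Rik (183 ± 38.5 and 129 ± 11.3 CPM) overlapped between the genotypes.

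In the other 5 the Het mean was higher. Gm47283 had the largest difference in CPM, though not on the log2 scale, where Sema3c led with 1.33. It ranged from 135 to 727 CPM in WT and from 802 to 1359 CPM in Het, with no overlap. It is annotated on chromosome Y yet was counted in females as in males, so its counts may include near-identical copies elsewhere. Its Het minus WT log2 difference was 1.20 in D1 nuclei (edgeR adjusted p = 0.380) and 1.18 in all other nuclei, also not called. Cc2d2a, a protein of the ciliary transition zone, stood between 6.59 and 26.8 CPM in WT and between 26.9 and 39.4 in Het. These ranges nearly touched, at levels that rest on few UMIs per library. Sema3c, a secreted semaphorin, stood at 12.9 ± 7.38 and 28.5 ± 10.9 CPM, the metalloprotease Adamts6 at 72.0 ± 22.3 and 116 ± 28.6 CPM, and the calsyntenin Clstn2 at 167 ± 51.9 and 286 ± 106 CPM. Sema3c had only 124 UMIs in all over the 11 libraries, so its log2 difference also rests on few counts. Clstn2, Cc2d2a and Sema3c were each higher in other nuclei than in D1 nuclei in all 11 libraries, at 1042, 48.9 and 58.4 CPM. In D1 nuclei the excitatory marker Neurod2 ranged from 6.47 to 23.1 CPM in WT and from 12.1 to 30.9 in Het, and Neurod6 from 0 to 30.7 and from 6.54 to 42.6 CPM. The summed astroglial markers ranged from 42.4 to 155 CPM in WT and from 107 to 154 in Het, and the part of these markers in the differences was not tested. Marked doublets made up 7.07% of WT and 8.64% of Het D1 nuclei. Without them the log2 difference of Sema3c went from 1.33 to 0.90 and that of Cc2d2a from 0.94 to 0.76, while Clstn2 (0.79 and 0.71), Adamts6 (0.80 and 0.77) and Gm47283 (1.20 and 1.18) moved less, and 0 genes were called.

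**Figure D5:**
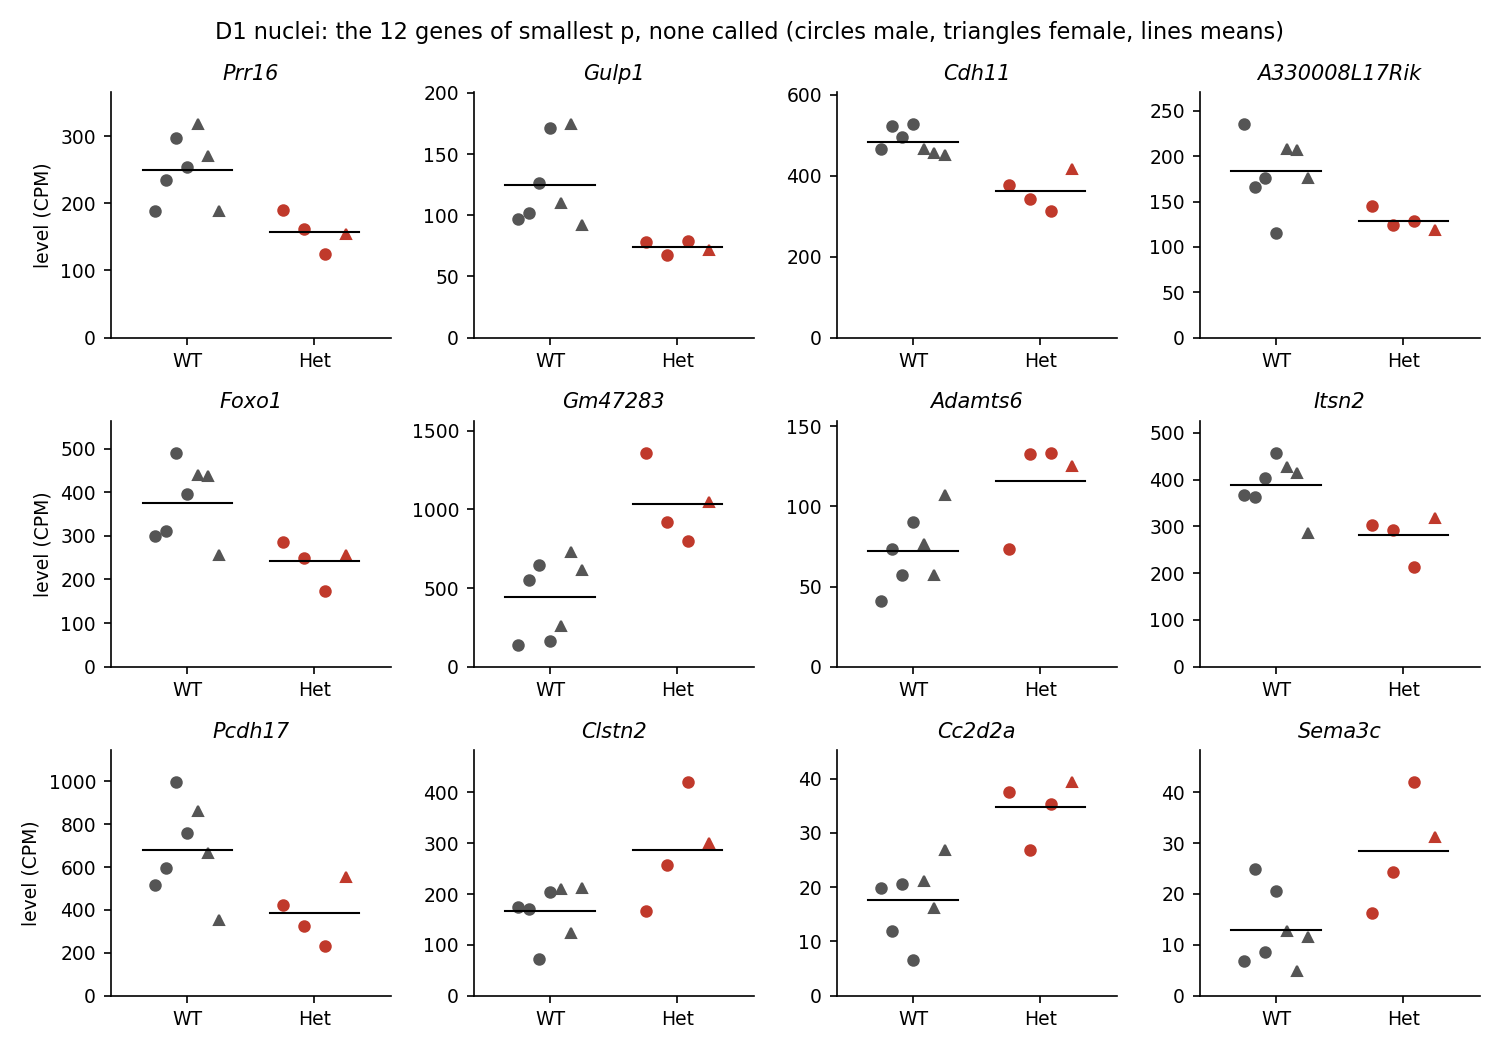
Level in D1 nuclei (CPM) of the 12 genes with the smallest p between Het and WT. Each point is 1 library (7 WT in grey, 4 Het in red, circles male, triangles female), and lines are means. Gulp1, Cdh11, Gm47283 and Cc2d2a do not overlap between genotypes, but the genes were picked for their small p. The ranges of Cc2d2a nearly touch. Of the 12, 0 passed the adjusted threshold.

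Cdh8, A330008L17Rik and Gm28175 were known from earlier results of these data and are given beside D2 nuclei. Cdh8 (chromosome 8, 99024471 to 99416471, minus strand, GRCm38), is a cadherin that was higher in D1 nuclei than in D2 and other nuclei in 11 of 11 libraries. It stood at 4191, 4796, 5541, 4522, 4804, 4561 and 4205 CPM in WT males 1, 2, 3 and 5 and females 1 to 3, and at 4294, 3305, 3517 and 3726 CPM in Het males 1 to 3 and female 1. Het male 1 lay within the WT range and the other 3 below it, and the log2 difference was -0.35 (standard error 0.0911, edgeR adjusted p = 0.422). In D2 nuclei of the same animals the log2 difference was -0.70 (standard error 0.155, edgeR adjusted p = 0.548), and in all other nuclei -0.08 (standard error 0.0643). Whether the D1 and D2 differences differ from those in other nuclei was not tested. A330008L17Rik, a noncoding RNA that begins beside the Cdh8 start on the other strand (chromosome 8, 99416642 to 99733438), had a log2 difference of -0.57 (standard error 0.134) in D1 nuclei and of -1.03 (standard error 0.273) in D2 nuclei, with edgeR adjusted p of 0.380 and 0.675. Gm28175 was low in D1 nuclei, between 6.85 and 53.7 CPM in WT and between 21.2 and 57.3 in Het.

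Gene groups showed no called member, and 0.0% of all genes were called. An unadjusted p under 0.05 was found for 433 of the 7071 genes tested, or 6.12%, beside which the counts of members are to be read. Of the 25 tested dopamine and cyclic AMP signalling genes, Prkaca, Pde1b, Pde4b and Gnao1 had an unadjusted p under 0.05, all with a lower mean in Het, and the median log2 difference was -0.05 against -0.004 over all genes. Of the 21 tested projection-neuron genes the median was -0.04, with Pde1b at an unadjusted p under 0.05. Of 30 axon guidance genes the median was 0.04, and Sema3c, Slit2, Unc5c and Epha3 (higher in Het) and Dcc and Ntn1 (lower) had an unadjusted p under 0.05. Of 29 tested adhesion genes the median was 0.002, and Cdh8, Cdh11, Cntn4 and Tenm2 had an unadjusted p under 0.05, each with a lower mean in Het. The 10 tested immature-neuron genes had a median of 0.20, with 1 at an unadjusted p under 0.05 (Nrep, 0.43), and the 18 mature-neuron genes a median of -0.07, with Camk2a (-0.35) and Kcnq3 (-0.22). The 8 patch genes had a median of -0.007, with Sema5b (0.36) and Lypd1 (-0.45) at an unadjusted p under 0.05, and the 5 tested matrix genes one of -0.08, with Gda (0.33). Of the 9 tested genes of Myt1l, its family and its corepressors, the median was 0.06, and Myt1, a family member, gave 0.45 at an unadjusted p of 0.0234 (edgeR, not called). The other D1 markers, 5 of 8 tested, had a median of -0.03.

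Whether the Het effect differed between D1 and D2 nuclei was tested within animals. By the mirrored D2 rule only 3 libraries, 1 WT and 2 Het, had at least 20 D2 nuclei, which left 1 residual degree of freedom. There edgeR called 4 of 8004 genes (0.05%), Dab1, Nlgn1 and Mir99ahg upward and Adarb2 downward, while DESeq2 called 0 and had 14 genes with p under 0.05 before adjustment. With the broader D2 rule over 11 libraries 0 of 5843 were called by either tool (0.0%), and p before adjustment was under 0.05 for 249 genes by edgeR and 82 by DESeq2. The differences of Dab1, Nlgn1, Adarb2 and Mir99ahg were then 0.62, 0.11, 0.05 and 0.002 on the log2 scale (edgeR adjusted p = 1.0 for each).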

How the data were processed

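The authors mapped reads to mm10, counted UMIs per gene and nucleus with ScaleRna, called nuclei with CellFinder and deposited expected counts, of which some are fractions. Per the labels Seurat 4.3.0 was also used. The origin of the fractions and the use of strand are not given in the sources used here. A UMI threshold was read with a tolerance of 0.001. The 126684 barcodes of 12 matrices were filtered as in the report, and 98076 of the 101766 kept also passed the study's ratio of log genes to log UMIs (0.9), an alternative here. Doublets (top 5% per library by simulated neighbours) were kept in the main analysis. No free RNA was subtracted.

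Expected counts of D1 nuclei were summed per library and rounded, since the design had assumed whole counts. edgeR 4.0.16 (R 4.3.3, TMM, filterByExpr, genotype only) was the test and DESeq2 1.42.0 an alternative. The 10 rule genes were not tested. Values per library were compared by exact permutation of libraries, two-sided, adjusted over 6, and the correlations with 100000 permutations. Libraries are separate animals. The test was tested on simulated data.

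Positions are from GENCODE M21 (GRCm38) by gene ID. Members and gene lists were chosen with earlier results of these data known. The genes named were the rule genes, Myt1l, the 12 smallest p, Cdh8, A330008L17Rik and Gm28175, genes with calls and up to 4 abundant members of each list, the 15 highest and 10 lowest against D2 nuclei, the 10 highest against all other nuclei, and genes called for the D1 to D2 difference. Other list members named were picked with their values in view. Alternatives were another normalization, no low-count filter, each library left out, sex, males only, all 12 libraries, doublets left out, other thresholds and a replicate block.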

Additional observations from a re-analysis of the deposited data

Results flagged for a closer look

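Dixon's test was applied to 42 groups of 4 to 8 libraries, of which chance would mark about 1 in 20. It marked 1. Adamts6 in D1 nuclei stood at 73.6 CPM in Het male 1, far below the other 3 Het libraries (125 to 133 CPM). By the mirrored D2 rule edgeR called 4 genes for a difference of the Het effect between D1 and D2 nuclei, with log2 differences of 2.23 for Dab1 (edgeR adjusted p = 2.58e-05), 1.52 for Nlgn1, -1.90 for Adarb2 and 2.07 for Mir99ahg. With 1 WT and 2 Het libraries and 1 residual degree of freedom this does not show that the effect differed, and neither DESeq2 nor the broader D2 rule called them. On the same 3 libraries edgeR gave like differences with another normalization and with no low-count filter (2.20 and 2.19 for Dab1).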

How the results depend on the processing

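The larger D1 share in Het libraries kept its direction under every setting tried. It was 0.707 percentage points with a replicate block, whose 4 pairs allow no p under 0.125, and 0.925 in males only (exact permutation p = 0.25). The difference ranged from 0.723 to 1.26 percentage points with each library left out, where p stayed under 0.05 only without WT male 1, WT male 2, Het male 1 or Het male 3. The thinned share gave 0.347 with the block and 0.301 to 0.539 with each library left out, losing p under 0.05 without Het male 2 or Het female 1. The block, which says nothing of stability here, reversed the D1 part (-0.0801 percentage points) and UMIs per D1 nucleus (6.75). The Oprm1-positive share, not called, ranged from -2.43 to 0.876 percentage points with each library left out and was -4.38 without thinning. The D1 part was 2.57 with the broader D2 rule. Same-numbered animals of a sex were treated as unpaired in the main tests. Their deviations correlated at -0.0205, -0.000448, -0.0579 and 0.101, against -0.137 to 0.16 for pairs of other numbers. With 4 such pairs this does not show whether animals shared a litter. The block called 0 genes. Called genes in D1 nuclei were 0 under every setting but no low-count filter (16). The broader D2 rule and a denominator without excitatory nuclei were chosen after seeing the data. Calls for the D1 to D2 difference went from 4 to 0 with DESeq2, the broader D2 rule, and that rule with other normalization, no filter, DESeq2 or each library left out. The first rule could not be fitted with a library left out. Causes were not tested. Depth limits low genes.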
